A study of Mus musculus with 6 samples.

Results

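The genes Spi1, Cebpa, Cebpb and Irf8 encode transcription factors that set up and keep the macrophage lineage, and chromatin accessibility around them was described here by ATAC-seq, an assay in which a transposase inserts adapters for sequencing where the DNA is open. Members were all sites of the deposited table that lay whole inside 1 of 4 windows of the mouse build mm9: chr2:90850000-91010000 for Spi1, chr7:35850000-36000000 for Cebpa, chr2:167450000-167600000 for Cebpb and chr8:123200000-123400000 for Irf8. The windows held 183 of the 578591 sites, of which 30 were in the Spi1, 41 in the Cebpa, 44 in the Cebpb and 68 in the Irf8 window. Another 2 sites crossed the edge of a window and were left out. The rule for members is a position on the genome, with no threshold on a measured value.

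The cells were bone marrow-derived macrophages (BMDMs) of wild-type C57BL/6 mice (C57BL/6J in the growth protocol), which were grown from marrow in medium conditioned by L929 cells, a source of the growth factor MCSF (also called CSF1), so that all 6 groups had been exposed to it before stimulation. The groups were Untreated; IL-4, a cytokine that drives the tissue repair state of macrophages, at 20 ng/ml for 24 hours; DMSO, the solvent of latrunculin A; DMSO + IL-4; LatA + IL-4, with the inhibitor of actin polymerization latrunculin A at 1 μM (the labels name no vehicle for this library); and MCSF + IL-4, with 100 ng/ml of added MCSF. Each group had 1 library, so there were no replicates, and a ratio sets 2 libraries side by side rather than 2 conditions. Reads in sites numbered from 12387332 to 19889902 per library, and the 183 member sites held between 0.0260% of them in Untreated and 0.0514% in LatA + IL-4.

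PU.1, the product of Spi1, is an ETS-family factor that opens enhancers in myeloid cells and B cells and without which macrophages do not form. C/EBPα, the product of Cebpa, acts with PU.1 in early myeloid progenitors, whereas C/EBPβ, the product of Cebpb, is prominent in mature macrophages and takes part in the induction of tissue repair genes by IL-4. IRF8 binds DNA mostly with a partner such as PU.1 and steers progenitors to the monocyte and dendritic cell fate. Spi1, Cebpa and Irf8 are known for enhancers that lie many kilobases from the gene start, and whole windows were read rather than promoters. The windows also hold other genes. In the gene order of GRCm38.p6, the neighbours are Slc39a13 and Mybpc3 for Spi1, Gm45095 and Slc7a10 for Cebpa, Tmem189 and Ptpn1 for Cebpb, and Cox4i1 and Foxf1 for Irf8. The annotation used here was not of the mm9 build, so no site was assigned to a gene start, an exon, an intron or an enhancer, and a site is named below by its mm9 position and by its distance from the site with the most reads in its window.

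To show the DNA from which these genes start, the 250 bases upstream of the RefSeq start were read for the 3 genes with an entry (Cebpa, Cebpb and Irf8), in GRCm38.p6 and on the plus strand. Their coordinates are not comparable with the mm9 positions of the sites. Capitals mark the letters that matched a searched motif, and each sequence ends at the base before the start. The stretches are chr7:35119043-35119292 for Cebpa, chr2:167688665-167688914 for Cebpb and chr8:120736108-120736357 for the first start of Irf8.
Cebpa: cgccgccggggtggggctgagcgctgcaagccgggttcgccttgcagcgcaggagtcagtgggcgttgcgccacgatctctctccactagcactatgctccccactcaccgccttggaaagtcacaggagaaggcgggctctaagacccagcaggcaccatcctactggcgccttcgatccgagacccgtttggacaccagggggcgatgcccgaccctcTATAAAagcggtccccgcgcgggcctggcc
Cebpb: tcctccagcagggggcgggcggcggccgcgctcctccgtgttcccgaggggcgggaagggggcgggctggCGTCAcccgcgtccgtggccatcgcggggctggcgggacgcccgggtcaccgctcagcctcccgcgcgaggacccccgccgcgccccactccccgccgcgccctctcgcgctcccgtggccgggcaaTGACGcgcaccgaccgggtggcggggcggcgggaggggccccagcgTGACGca
Irf8: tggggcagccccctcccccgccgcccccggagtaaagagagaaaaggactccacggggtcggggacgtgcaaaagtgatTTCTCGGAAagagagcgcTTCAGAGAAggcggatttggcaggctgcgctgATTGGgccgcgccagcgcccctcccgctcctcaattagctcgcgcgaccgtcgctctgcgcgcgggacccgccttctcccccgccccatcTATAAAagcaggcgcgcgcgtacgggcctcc
The motifs searched, on both strands, were TTNNGNAA (bound by C/EBP factors), GAGGAA (the core bound by PU.1), TTCNNNGAA (the GAS element bound by STAT factors), TTCNNNNGAA (preferred by STAT6, the factor that carries the IL-4 signal), TGACG (the CRE half-site bound by CREB), TATAAA (the TATA box) and CCAAT (the CCAAT box, bound by NF-Y). Both the Cebpa and the Irf8 stretch hold a TATA box, from 30 to 25 bases before the start in Cebpa and from 31 to 26 in Irf8, and 12.4% of the 32851 promoters in the RefSeq table hold those letters. The Cebpb stretch is the richest in G and C, at 81.6% against a median of 52.4% over all promoters, and it holds 3 CRE half-sites, where 17.8% of promoters hold at least 1. They lie 180 to 176, 53 to 49 and 7 to 3 bases before the start. In the Irf8 stretch there are 2 GAS elements, TTCTCGGAA at 171 to 163 and TTCAGAGAA at 153 to 145 bases before the start, where 7.02% of promoters hold such an element, and the reverse of a CCAAT box at 121 to 117, present in 33.8% of promoters. No letters of the C/EBP (36.8% of promoters), PU.1 (23.3%) or STAT6 (5.85%) motif were in these 3 stretches. The stretch before a second start of Irf8, chr8:120738389-120738638, held no match to any of the searched motifs. A match to letters is a description of the sequence and was not measured as binding.

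The strength of the sites was described first. Reads were divided by the authors' effective library size and brought to a common scale, and are called normalized reads below. Of the 183 sites, 63 averaged at least 20 normalized reads across the libraries and were compared, with 12 at Spi1, 13 at Cebpa, 20 at Cebpb and 18 at Irf8. The other 120 sites were weaker, and 31 of the 183 had no read in at least 1 library. Each window was led by a few strong sites: 14 sites averaged 100 normalized reads or more, 4 of them at Spi1, 2 at Cebpa, 6 at Cebpb and 2 at Irf8. Sites were densest in the Irf8 window, with 34.0 per 100 kb, followed by 29.3 at Cebpb, 27.3 at Cebpa and 18.7 at Spi1.

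**Figure D1:**
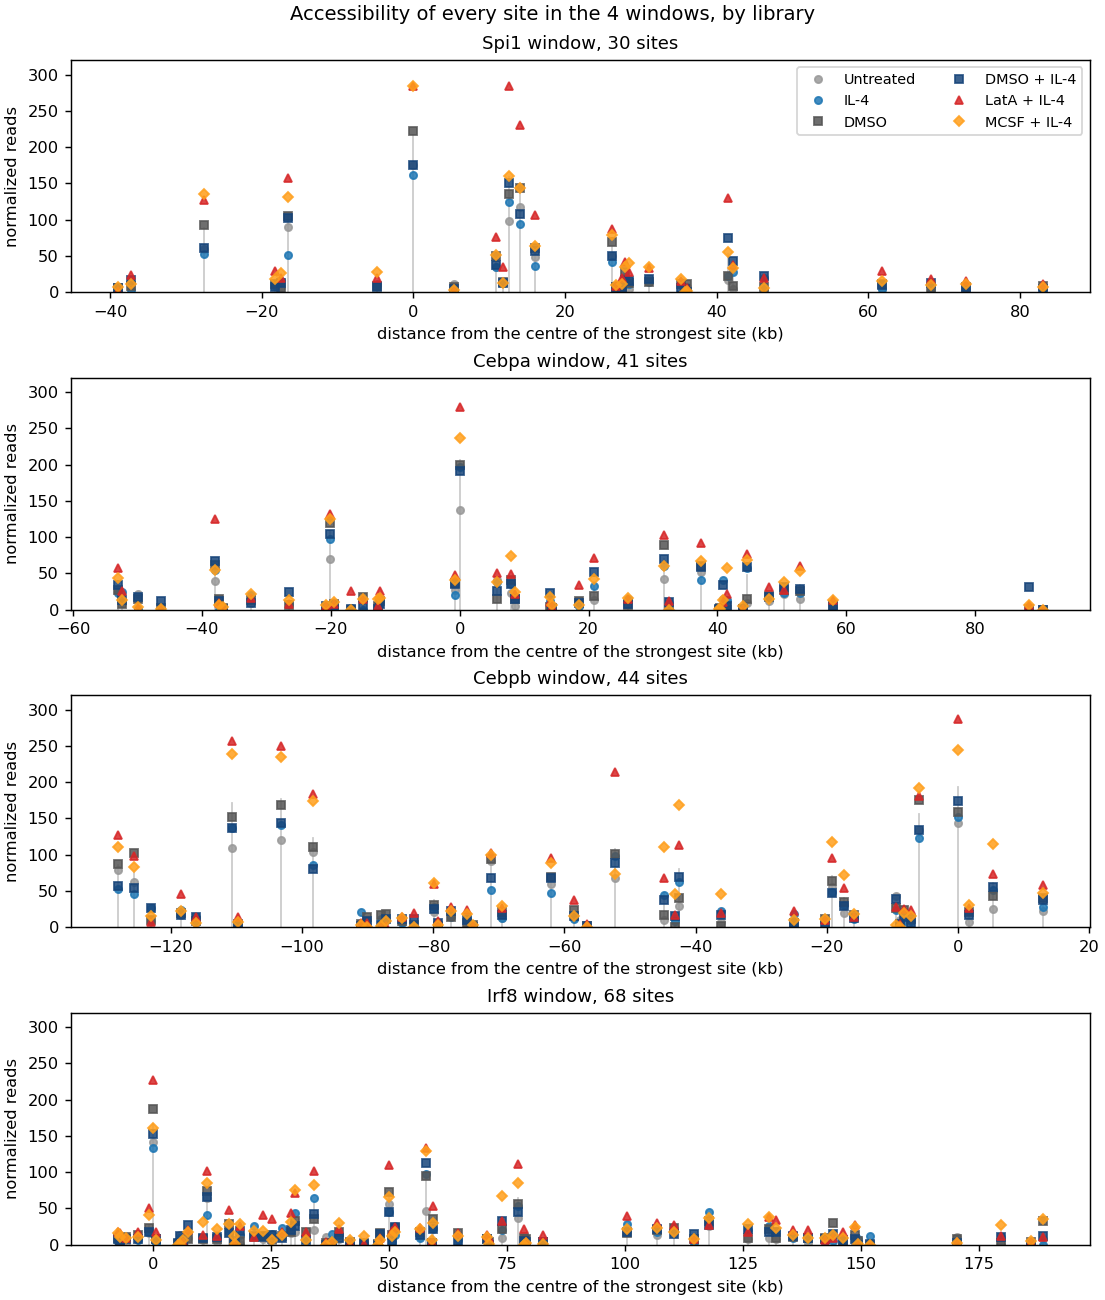
Normalized reads (y axis) of all 183 sites in the Spi1, Cebpa, Cebpb and Irf8 windows against the distance in kb from the centre of the strongest site of the window (x axis), with 1 symbol per library and a grey line up to the mean of the 6 libraries. In each window a few sites stand above 100 normalized reads, and LatA + IL-4 is shown by red triangles.

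At Spi1, the strongest site was chr2:90910194-90911058. It had 175 normalized reads in Untreated, 222 in DMSO, 161 in IL-4, 176 in DMSO + IL-4, 285 in MCSF + IL-4 and 284 in LatA + IL-4. The LatA + IL-4 and MCSF + IL-4 libraries were thus the highest, and the highest library had 1.77 times the reads of the lowest. The next site, chr2:90922901-90923669 at +12.7 kb, had 97.7 normalized reads in Untreated, 135 in DMSO, 124 in IL-4, 151 in DMSO + IL-4, 160 in MCSF + IL-4 and 285 in LatA + IL-4. The site at +14.1 kb, chr2:90924364-90925012, had 117, 144, 94.2, 108, 143 and 230 normalized reads in the same order of libraries. At both of these sites LatA + IL-4 stood alone above the other 5 libraries, whereas MCSF + IL-4 was within the range of the rest or close above it.

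At Cebpa, chr7:35903809-35904671 was the strongest site, with 137 normalized reads in Untreated, 199 in DMSO, 197 in IL-4, 192 in DMSO + IL-4, 237 in MCSF + IL-4 and 279 in LatA + IL-4. The site chr7:35883667-35884440, at −20.2 kb, had 69.6, 119, 97.2, 104, 125 and 132 normalized reads in the same order, and chr7:35935735-35936317, at +31.8 kb, had 42.2, 89.2, 59.9, 69.3, 59.7 and 102. Untreated was the lowest library at all 3 sites. LatA + IL-4 was the highest at each, by little over MCSF + IL-4 at −20.2 kb and over DMSO at +31.8 kb.

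At Cebpb, the 3 strongest sites lay toward the ends of the window. The site chr2:167585231-167585948 had 144 normalized reads in Untreated, 159 in DMSO, 152 in IL-4, 175 in DMSO + IL-4, 245 in MCSF + IL-4 and 287 in LatA + IL-4. At −103 kb, chr2:167482049-167482722 had 120, 168, 141, 144, 234 and 250 normalized reads in the same order, and chr2:167474686-167475270, at −111 kb, had 110, 151, 136, 137, 239 and 257. LatA + IL-4 was the highest and MCSF + IL-4 the next library at all 3 sites. The share of all compared sites with this order was not counted.

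At Irf8, chr8:123209610-123210423 was the strongest site, with 141 normalized reads in Untreated, 187 in DMSO, 133 in IL-4, 152 in DMSO + IL-4, 160 in MCSF + IL-4 and 228 in LatA + IL-4. Here the DMSO library, which had no IL-4, was above MCSF + IL-4. The site chr8:123267446-123268139, at +57.8 kb, had 46.6, 94.6, 97.2, 113, 129 and 133 normalized reads in the same order, so that Untreated was well below the other 5 libraries. The site chr8:123220990-123221967, at +11.5 kb, had 64.4, 73.8, 41.2, 65.6, 85.5 and 101, with IL-4 as the lowest library.

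To give each locus 1 level per library, reads were summed over all of its sites, also the weak ones. Between loci the sums were compared per kb of site. On that scale Untreated had 76.7 normalized reads per kb at Spi1, 74.4 at Cebpb, 46.0 at Cebpa and 38.9 at Irf8. In LatA + IL-4 the levels were 168 at Spi1, 146 at Cebpb, 102 at Cebpa and 85.5 at Irf8, so that the order of the loci was the same in these libraries. Cebpb came first in IL-4, with 81.0 against 70.7 normalized reads per kb at Spi1, and in MCSF + IL-4, with 137 against 127.

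The summed normalized reads of the Spi1 locus were 868 in Untreated, 1098 in DMSO, 800.0 in IL-4, 1057 in DMSO + IL-4, 1437 in MCSF + IL-4 and 1898 in LatA + IL-4. Cebpa had 678, 910, 918, 1072, 1251 and 1499 in the same order. Cebpb had 1406, 1785, 1531, 1617, 2597 and 2765, and Irf8 had 867, 1238, 1116, 1104, 1607 and 1909. At all 4 loci LatA + IL-4 was the highest and MCSF + IL-4 the second highest library, and the other 4 libraries lay below both. Untreated was the lowest library at Cebpa, Cebpb and Irf8, and IL-4 was the lowest at Spi1. The neighbours at the low end of Spi1 did not differ beyond counting error, since the ratio of IL-4 to Untreated was 0.922 (95% exact interval for counting error 0.842 to 1.01). The same holds for DMSO + IL-4 and DMSO at Spi1, with a ratio of 0.963 (0.881 to 1.05). These intervals treat reads as independent molecules, which could not be checked without molecular identifiers, and hold no variation between cultures. The authors removed duplicates, but they allowed several alignments per read.

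**Figure D2:**
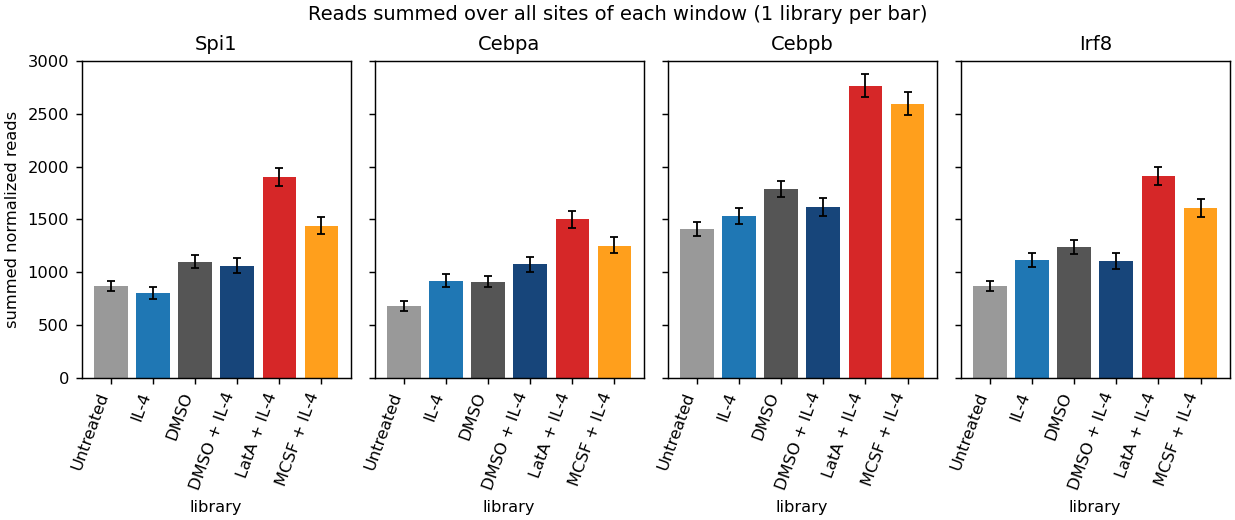
Summed normalized reads (y axis) of all sites in each window, with 1 bar per library and bars of 95% exact Poisson intervals for counting error only. LatA + IL-4 is the tallest bar in each window, with 1898 at Spi1, 1499 at Cebpa, 2765 at Cebpb and 1909 at Irf8, and MCSF + IL-4 is the next.

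The 4 loci moved in much the same way across the libraries. The Pearson correlation of the log2 summed reads over the 6 libraries was highest for Cebpb with Irf8 (r = 0.972), followed by Spi1 with Cebpb (0.951), Cebpa with Irf8 (0.941) and Spi1 with Irf8 (0.924). Cebpa had the least likeness to Cebpb (0.896) and to Spi1 (0.880). These 6 points are single libraries, and all loci in a library share its depth, its scale and its quality, so the values describe the libraries and carry no test.

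To ask where IL-4 altered accessibility, IL-4 was compared with Untreated and DMSO + IL-4 with DMSO, which have no library in common. Calls were made past 1.5-fold, after 1 read had been added to the normalized reads of both libraries. A small set of 5 sites, 1 at Spi1, 2 at Cebpa and 2 at Cebpb, was higher with IL-4 in both comparisons, none of them among the 3 strongest of its locus, and no site of the Irf8 window was. They are 7.94% of the 63 compared sites, against 8.73% of all 132057 compared sites, which is a like share. The 5 sites had from 4.44 to 28.9 normalized reads in Untreated and from 27.5 to 61.8 in IL-4. They were picked by these ratios, so their values below are a description.

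The largest ratio without vehicle was at Cebpa, 44.6 kb from the strongest site, at chr7:35948664-35949060. This site had 8.88 normalized reads in Untreated, 15.3 in DMSO, 56.9 in IL-4, 58.2 in DMSO + IL-4, 69.1 in MCSF + IL-4 and 77.0 in LatA + IL-4. The 4 libraries with IL-4 did not overlap those without it, which follows in part from the choice of the site. The ratio was 6.41 (3.41 to 13.1) for IL-4 against Untreated, from 58 and 12 reads, and 3.80 (2.14 to 7.06) with DMSO. Neither LatA + IL-4 (ratio 1.32, 0.905 to 1.95) nor MCSF + IL-4 (1.21, 0.83 to 1.78) differed from its control beyond counting error.

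The Spi1 site chr2:90952622-90953025, at +42.2 kb, had the same form, with 4.44 normalized reads in Untreated, 8.10 in DMSO, 27.5 in IL-4, 43.3 in DMSO + IL-4, 32.8 in MCSF + IL-4 and 36.9 in LatA + IL-4. Its ratio was 6.19 (2.52 to 18.3) without vehicle, from 28 and 6 reads, and 5.35 (2.52 to 12.6) with DMSO. With latrunculin A the ratio was 0.852 (0.518 to 1.40) and with MCSF 1.19 (0.681 to 2.09). The site beside it, chr2:90951691-90952495, described after its values were seen, had 17.0, 21.6, 21.6, 74.3, 55.1 and 130 normalized reads in the same order of libraries, so that IL-4 went with more reads in DMSO (log2 ratio 1.73) and the log2 ratio without vehicle was 0.33. Here MCSF + IL-4 was above IL-4 beyond counting error, with a ratio of 2.55 (1.51 to 4.44), as was LatA + IL-4 above DMSO + IL-4, with 1.75 (1.27 to 2.42).

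Both Cebpb sites were near each other. The first, chr2:167540539-167541023 at −44.8 kb, had 9.62 normalized reads in Untreated, 16.2 in DMSO, 44.2 in IL-4, 37.1 in DMSO + IL-4, 110 in MCSF + IL-4 and 67.5 in LatA + IL-4. The second, chr2:167542743-167543479 at −42.5 kb, had 28.9, 40.5, 61.8, 69.3, 169 and 113 in the same order. The libraries with IL-4 lay above those without it at both sites, which again follows in part from the choice, and MCSF + IL-4 was the highest of all. Without vehicle the ratio to Untreated was 4.59 (2.43 to 9.28) at the first and 2.14 (1.42 to 3.28) at the second site, and with DMSO it was 2.29 (1.24 to 4.36) and 1.71 (1.13 to 2.59). The ratio of MCSF + IL-4 to IL-4 was above 1 beyond counting error at both, at 2.49 (1.73 to 3.64) and 2.73 (2.02 to 3.73). The last of the 5 sites was at Cebpa, chr7:35924764-35925466 at +20.9 kb, with 13.3, 18.9, 32.4, 52.0, 42.2 and 71.7 normalized reads in the same order of libraries. Its ratio was 2.43 (1.33 to 4.59) without vehicle and 2.75 (1.59 to 4.89) with DMSO.

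**Figure D3:**
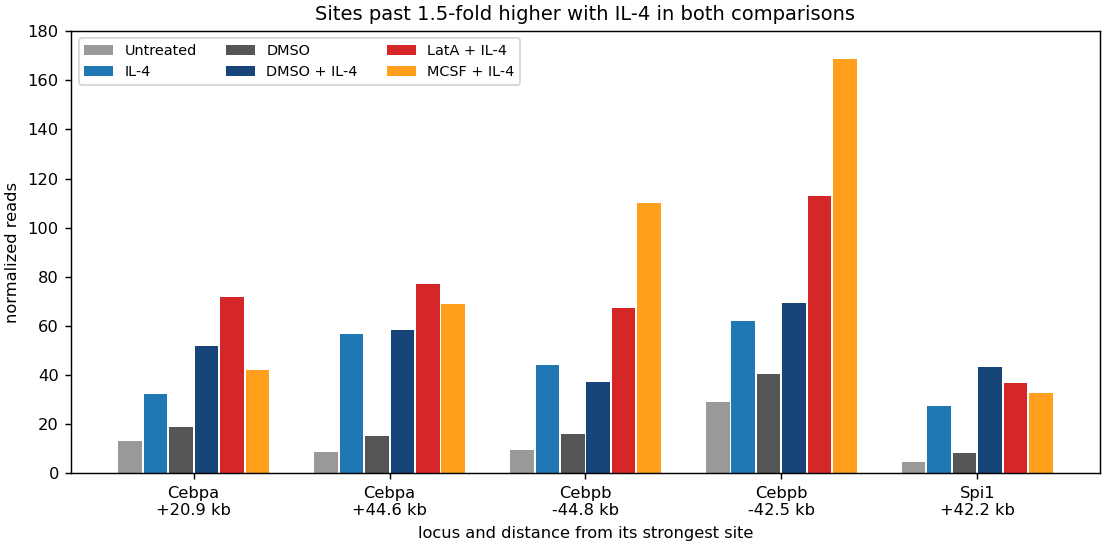
Normalized reads (y axis) in each of the 6 libraries (bars) at the 5 sites past 1.5-fold with IL-4 in both comparisons, named on the x axis by locus and distance from the strongest site of the window. Untreated and DMSO (grey bars) are the 2 lowest libraries at each site, which follows in part from the choice of the sites. MCSF + IL-4 (orange) reaches 169 at the Cebpb site at −42.5 kb.

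The same 5 sites passed for IL-4 in an edgeR fit, but its IL-4 term rests on the libraries by which they were picked. An additive edgeR quasi-likelihood fit to all 6 libraries, with terms for IL-4, vehicle, latrunculin A and MCSF and 1 residual degree of freedom, called 5 of the 63 sites higher and 0 lower with IL-4 at a Benjamini-Hochberg adjusted p under 0.05 over all 132057 sites, where it called 5.35% of all sites higher and 0.85% lower. At an unadjusted p under 0.05 it gave 9 member sites higher and 3 lower, which is 19% of the 63 in either direction, against 16.9% of all compared sites. The fitted log2 change was 2.28 at the Cebpa site at +44.6 kb (edgeR adjusted p = 0.000367), 2.49 at the Spi1 site (edgeR adjusted p = 0.00126) and 1.68 at the Cebpb site at −44.8 kb (edgeR adjusted p = 0.00615). It was 1.37 at the Cebpa site at +20.9 kb (edgeR adjusted p = 0.0163) and 0.93 at the Cebpb site at −42.5 kb (edgeR adjusted p = 0.0382). In the Irf8 window the lowest edgeR adjusted p was 0.113. The fit uses the reads of the same libraries as the calls and takes effects as additive, and its spread rests on the 1 degree of freedom left where the IL-4 effect with and without vehicle can differ.

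The deposited peaks, called by the authors in each library, gave a further reading of the same reads. No peak of the Untreated library touched 4 of the 5 sites, whereas all 4 libraries with IL-4 had a peak at each. DMSO had a peak at 4 of them and none at the Spi1 site. Peaks are a threshold on the reads already given and are not independent of them. Since the 5 sites were picked for more reads with IL-4, this split of the peaks follows in part from the choice.

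Over all compared sites of the 4 windows, 15 of 63 were called higher in IL-4 than in Untreated (23.8%, where 20.8% of all compared sites were) and 6 were lower (9.52%, where 8.88% of all sites were). With DMSO, 7 sites were higher (11.1%, where 16.6% of all sites were) and 8 lower (12.7%, where 12.8% of all sites were). When libraries were scaled by their total reads instead, the latter split was 8 higher (12.7%, against 18.9% of all sites) and 4 lower (6.35%, against 10.6%). Irf8 had the most sites higher without vehicle, 7 of 18, and none of 18 higher with DMSO, where 4 were lower. Its site at +57.8 kb, given above, had a log2 ratio of 1.044 without vehicle and 0.25 with DMSO. At the level of the locus, the ratio of summed reads at Irf8 was 1.29 (1.19 to 1.40) without vehicle and 0.892 (0.819 to 0.971) with DMSO, and that at Cebpb 1.09 (1.02 to 1.17) and 0.906 (0.844 to 0.972). Cebpa was the one locus above 1 in both, at 1.35 (1.23 to 1.48) and 1.18 (1.08 to 1.29). Whether the IL-4 ratio differed with vehicle was not tested. The sum of all sites outside the windows gave ratios of 1.02 and 0.956, and that of sites with 20 to 1000 reads 1.10 and 1.01, so that Cebpb without vehicle was not above the latter.

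A single site was lower with IL-4 in both comparisons, where 2.38% of all sites were. It lay at Spi1, at chr2:90938348-90938672 (+27.9 kb), with 21.5 normalized reads in Untreated, 27.9 in DMSO, 11.8 in IL-4, 17.3 in DMSO + IL-4, 35.1 in MCSF + IL-4 and 42.2 in LatA + IL-4. IL-4 and DMSO + IL-4 were the lowest libraries. The counting intervals of both ratios held 1, at 0.549 (0.255 to 1.11) and 0.621 (0.305 to 1.20), and the fit gave a log2 change of −0.77 (edgeR adjusted p = 0.33). None of the 63 sites was higher in one IL-4 comparison and lower in the other, which 2.5% of all compared sites were.

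**Figure D4:**
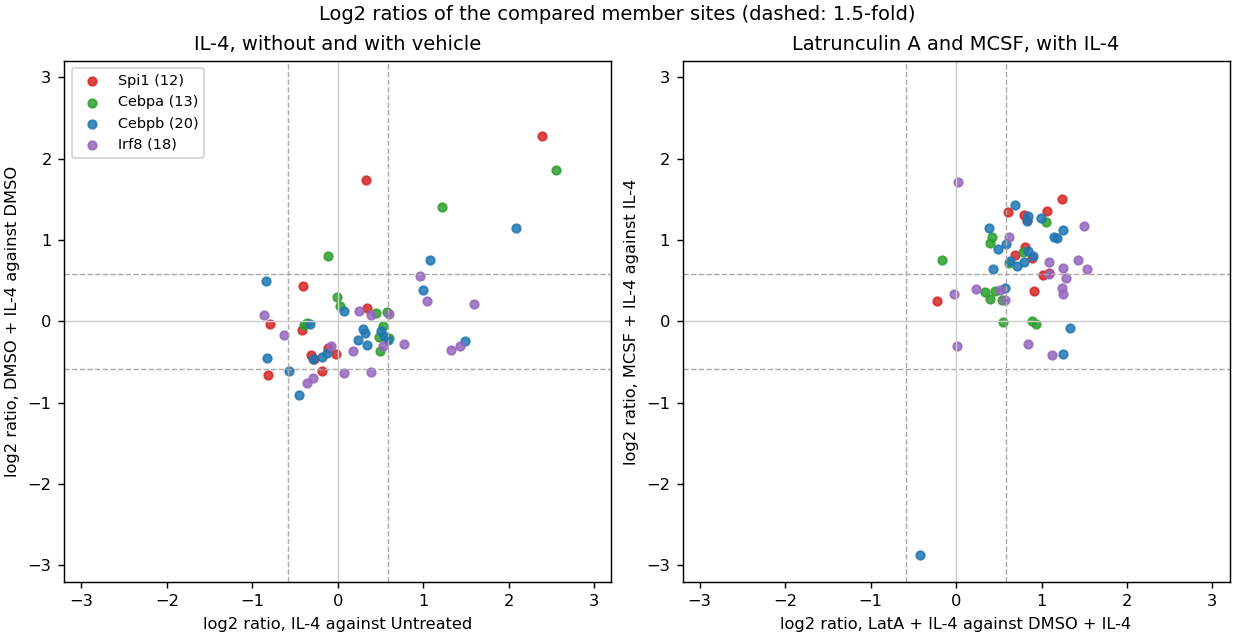
Log2 ratios of the 63 compared sites, coloured by locus, with dashed lines at 1.5-fold. On the left, IL-4 against Untreated (x axis) is set against DMSO + IL-4 against DMSO (y axis), and 5 sites lie past the lines at the upper right. On the right, LatA + IL-4 against DMSO + IL-4 (x axis) is set against MCSF + IL-4 against IL-4 (y axis), and 30 sites lie at the upper right and none at the lower left.

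Libraries that differ in vehicle only show how far single libraries lie apart with no treatment of interest between them. DMSO was higher than Untreated at 21 of 63 sites (33.3%, where 16.8% of all sites were) and lower at 2 (3.17%, where 7.24% of all sites were). The log2 ratio was above 0 at 58 of the 63 (92.1%, against 64.1% of all compared sites), with a median of 0.46 against 0.18 over all compared sites. With the trend of the ratio with the reads of a site removed, 11 sites were higher (17.5%, against 10.1% of all compared sites). At the Irf8 site at +57.8 kb the ratio was 2.03 (1.47 to 2.82), and at the Cebpa site at +31.8 kb it was 2.11 (1.51 to 2.98), where IL-4 against Untreated gave 2.08 (1.505 to 2.91) and 1.42 (0.973 to 2.07). In the presence of IL-4, DMSO + IL-4 was higher than IL-4 at 10 sites (15.9%, where 11.2% of all sites were) and lower at 4 (6.35%, where 9.8% of all sites were), and all 4 were at Irf8. The edgeR fit called 0 member sites for the vehicle in either direction (0.175% of all sites higher and 0.134% lower), with 6 higher and 1 lower at an unadjusted p under 0.05 (11.1% of the 63 in either direction, against 7.33% of all compared sites).

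Latrunculin A went with more reads at most of the compared sites. LatA + IL-4 was higher than DMSO + IL-4 at 42 of 63 sites (66.7%, where 30.1% of all compared sites were) and lower at 0 (where 15.7% of all sites were). With the trend with reads removed, 23 were higher (36.5%, against 19.2% of all compared sites). Set against IL-4 without vehicle, LatA + IL-4 was higher at 47 sites (74.6%, against 34.4% of all compared sites) and lower at 1 (1.59%, against 16.0%). With the controls exchanged in the same way, MCSF + IL-4 was higher than DMSO + IL-4 at 27 sites (42.9%, against 24.9%), and both treatments were higher at 23 (36.5%, against 14.4%). By locus the 42 sites were 11 of 12 sites at Spi1, 5 of 13 at Cebpa, 14 of 20 at Cebpb and 12 of 18 at Irf8. The counting interval of the ratio lay above 1 at 44 sites (69.8%, where 28.3% of all compared sites did) and below 1 at 0 (where 9.06% did). The median log2 ratio of the 63 sites was 0.81, against 0.20 over all compared sites. The summed reads of the locus were 1.80-fold higher at Spi1 (1.65 to 1.95), 1.40-fold at Cebpa (1.28 to 1.52), 1.71-fold at Cebpb (1.60 to 1.83) and 1.73-fold at Irf8 (1.59 to 1.88), where the sum of all sites outside the windows was 1.02-fold and that of sites with 20 to 1000 reads 1.26-fold higher.

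MCSF gave a like picture from libraries that the latrunculin A comparison does not use. MCSF + IL-4 was higher than IL-4 at 38 of 63 sites (60.3%, where 29.2% of all sites were) and lower at 1 (1.59%, where 14.9% of all sites were). With the trend with reads removed, 22 were higher (34.9%, against 19.5% of all compared sites). The 38 sites were 9 of 12 at Spi1, 6 of 13 at Cebpa, 16 of 20 at Cebpb and 7 of 18 at Irf8. For 37 sites (58.7%, where 27.7% of all compared sites did) the counting interval lay above 1, and for 1 below it (where 8.78% did). The median log2 ratio was 0.72, against 0.16 over all compared sites. Summed reads were 1.80-fold higher at Spi1 (1.64 to 1.97), 1.36-fold at Cebpa (1.25 to 1.49), 1.70-fold at Cebpb (1.59 to 1.81) and 1.44-fold at Irf8 (1.33 to 1.56), where the sum of all sites outside the windows was 1.05-fold and that of sites with 20 to 1000 reads again 1.26-fold higher. Cebpa thus had the lowest ratio of the 4 loci with both treatments.

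Both treatments were called higher at 30 of the 63 sites, where 15.4% of all compared sites were, and lower at 0, where 4.36% were. With the trend with reads removed, 11 sites were higher with both (17.5%, against 7.89% of all compared sites), and with reads outside the largest sites of the genome as the scale 15 were (23.8%, against 7.39%). The 30 sites were 9 sites at Spi1, 3 at Cebpa, 12 at Cebpb and 6 at Irf8. No site was higher with one treatment and lower with the other, against 3.4% of all compared sites. The site ranked first at Spi1 was the one at +27.9 kb that was lower with IL-4, with ratios of 2.43 (1.30 to 4.84) for latrunculin A and 2.98 (1.48 to 6.40) for MCSF. The libraries in which it was low are the controls of these ratios, so that its choice favours a rise.

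At Cebpa, chr7:35956868-35957365 (+52.9 kb) ranked first, with 14.8 normalized reads in Untreated, 26.1 in DMSO, 22.6 in IL-4, 28.5 in DMSO + IL-4, 53.9 in MCSF + IL-4 and 60.1 in LatA + IL-4. At Cebpb it was chr2:167505441-167505952 (−79.9 kb), with 21.5, 30.6, 27.5, 24.8, 60.9 and 60.1 in the same order. At Irf8 it was chr8:123209117-123209377, beside the strongest site of the window, with 15.5, 22.5, 17.7, 17.3, 41.0 and 50.6. These sites were ranked by the same ratios, so their values are a description and the gap between LatA + IL-4 or MCSF + IL-4 and its control follows from the choice. The ratios for latrunculin A were 2.11 (1.28 to 3.59), 2.43 (1.44 to 4.27) and 2.92 (1.58 to 5.74), and those for MCSF 2.39 (1.42 to 4.13), 2.22 (1.37 to 3.64) and 2.32 (1.28 to 4.35).

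The strongest sites of each locus were also read out for each treatment. At the Spi1 site at +12.7 kb the ratio was 1.89 (1.52 to 2.35) for latrunculin A and 1.30 (1.01 to 1.67) for MCSF, and at that at +14.1 kb 2.13 (1.66 to 2.77) and 1.52 (1.15 to 2.00), whereas the strongest Spi1 site had 1.61 (1.31 to 1.99) and 1.77 (1.44 to 2.17). The 3 strongest Cebpb sites had ratios from 1.64 to 1.87 with latrunculin A and from 1.61 to 1.75 with MCSF. The strongest Cebpa site had 1.46 (1.19 to 1.79) and 1.20 (0.982 to 1.47), and the strongest Irf8 site 1.496 (1.19 to 1.88) and 1.20 (0.941 to 1.54).

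The other strong sites of Cebpa and Irf8 differed among themselves. At the Cebpa site at −20.2 kb the ratio was 1.27 (0.954 to 1.69) for latrunculin A and 1.29 (0.972 to 1.71) for MCSF, neither beyond counting error. At that at +31.8 kb it was 1.48 (1.05 to 2.09) and 0.998 (0.674 to 1.47), so that the MCSF + IL-4 and IL-4 libraries were level. At the Irf8 site at +57.8 kb it was 1.18 (0.894 to 1.56) and 1.33 (1.00 to 1.76), and at that at +11.5 kb 1.54 (1.09 to 2.20) and 2.07 (1.40 to 3.11), the highest for MCSF among these 12 strongest sites. The difference between the treatments was not tested at any of these sites.

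The ratio of a site moved with its reads, and with that trend removed none of these 12 sites was past 1.5-fold with either treatment. The log2 ratios for latrunculin A and MCSF were then 0.14 and 0.25 at the strongest Spi1 site, 0.33 and −0.25 at +12.7 kb and 0.50 and −0.03 at +14.1 kb. At the 3 Cebpb sites they ran from 0.15 to 0.33 for latrunculin A and from 0.09 to 0.20 for MCSF. At the strongest Cebpa site they were −0.0077 and −0.31, at −20.2 kb −0.27 and −0.26, and at +31.8 kb 0.018 and −0.55. At the strongest Irf8 site they were −0.0031 and −0.35, at +57.8 kb −0.36 and −0.22, and at +11.5 kb 0.05 and 0.49. At the 4 sites ranked first they ran from 0.97 to 1.48 for latrunculin A and from 1.06 to 1.52 for MCSF.

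A Cebpb site that the naming rule did not pick, and that was chosen after its values were seen, was the only one of the 63 lower with MCSF. It is chr2:167575712-167576547, at −9.46 kb, with 42.9 normalized reads in Untreated, 27.0 in DMSO, 23.6 in IL-4, 38.4 in DMSO + IL-4, 2.34 in MCSF + IL-4 and 28.5 in LatA + IL-4. MCSF + IL-4 stood alone with 2 reads, against 24 in IL-4, a ratio of 0.0994 (0.0114 to 0.401). For latrunculin A the ratio was 0.742 (0.426 to 1.28).

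In the additive edgeR fit, in which LatA and MCSF each rest on 1 library assumed to vary like the others, 2 member sites passed for latrunculin A and 16 for MCSF. For latrunculin A 2 were higher and 0 lower (1.54% of all sites higher and 0.56% lower), the Spi1 site at +14.1 kb with a log2 change of 1.06 (edgeR adjusted p = 0.0405) and the Cebpb site chr2:167486948-167487612 at −98.3 kb with 1.14 (edgeR adjusted p = 0.0387). At an unadjusted p under 0.05 there were 34 higher and 0 lower, 54% of the 63 in either direction, against 22.2% of all compared sites. For MCSF 15 were higher and 1 lower (8.45% and 1.0% of all sites), with 3 of the higher ones at Spi1, 2 at Cebpa, 9 at Cebpb and 1 at Irf8, and the lower one was the Cebpb site with 2 reads (log2 change −3.66, edgeR adjusted p = 0.0158). The lowest of these p-values belonged to the Cebpb site at −42.5 kb that was also higher with IL-4 (log2 change 1.52, edgeR adjusted p = 0.00968). Among the strongest sites, that of Spi1 passed (0.88, edgeR adjusted p = 0.0324), as did the Cebpb sites at −111 kb (0.92, edgeR adjusted p = 0.0341) and −103 kb (0.84, edgeR adjusted p = 0.0456). The strongest sites of Cebpb (0.67, edgeR adjusted p = 0.0835), Cebpa (0.40, edgeR adjusted p = 0.331) and Irf8 (0.32, edgeR adjusted p = 0.453) did not, nor did the Spi1 sites at +12.7 kb (0.42, edgeR adjusted p = 0.311) and +14.1 kb (0.63, edgeR adjusted p = 0.135).

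The make-up of the libraries moved with these results. The 295 largest sites, of 1000 normalized reads or more on average, held 33.9% of reads in Untreated, 34.7% in DMSO, 31.5% in IL-4 and 30.8% in DMSO + IL-4, but 24.9% in MCSF + IL-4 and 22.6% in LatA + IL-4. Compared sites of 20 to 1000 reads held 40.8% in IL-4 and 41.9% in DMSO + IL-4, but 49.0% in MCSF + IL-4 and 51.6% in LatA + IL-4. The part of this in the ratios was not tested. With the reads outside those 295 sites as the scale, the median over all compared sites was −0.0014 for latrunculin A and −0.0519 for MCSF, 34 member sites were called higher and 1 lower for latrunculin A (54.0% and 1.59%, against 19.9% and 23.2% of all compared sites). For MCSF 26 were higher and 3 lower (41.3% and 4.76%, against 19.3% and 23.4%). The ratio also varied with the strength of a site, and member sites had more reads than most. Among sites of 20 to 50 reads, 61.3% of 31 member sites were higher with latrunculin A and 24.9% of all such sites. In the class of 50 to 100 reads these shares were 77.8% of 18 and 43.4%, and at 100 reads or more 64.3% of 14 and 46.8%. For MCSF they were 51.6% and 23.1%, 77.8% and 43.3%, and 57.1% and 50.4%. The sites of 1 window are neighbours on 1 chromosome and share the reads of 1 library, so they are not replicates, and no test was made of the member share against the rest.

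**Figure D5:**
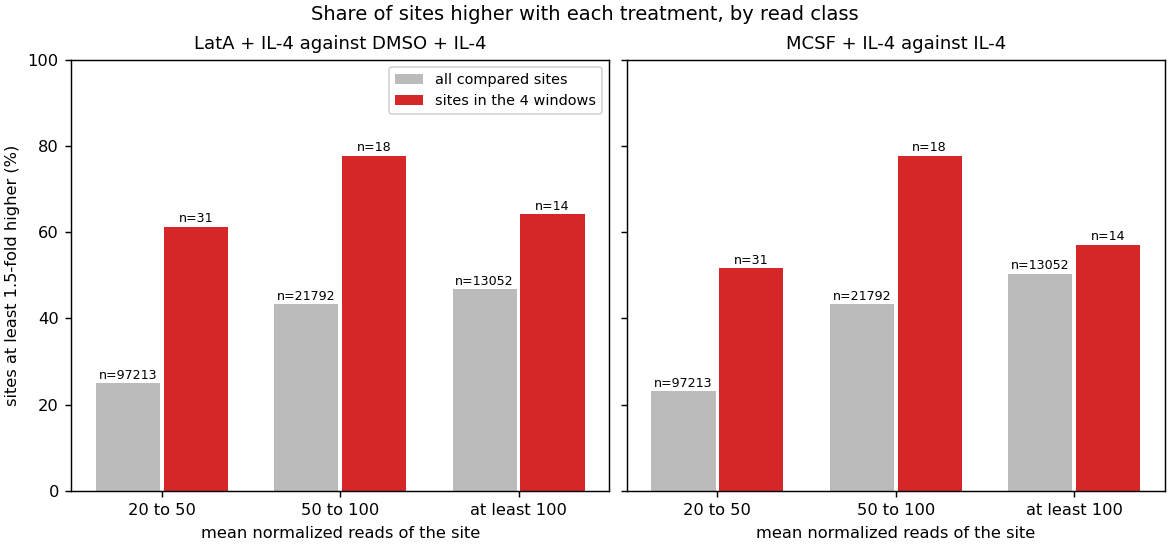
Share of sites at least 1.5-fold higher (y axis, percent) with latrunculin A (left) and MCSF (right), by class of mean normalized reads (x axis), for all compared sites (grey) and for the member sites of the 4 windows (red), with the number of sites above each bar. The red bar is above the grey bar in each class, by the least for MCSF at 100 reads or more, with 57.1% against 50.4%.

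Peaks were counted in the same windows. The authors' peak lists held 79 peaks in the 4 windows in Untreated, 86 in DMSO, 92 in IL-4, 91 in DMSO + IL-4, 110 in MCSF + IL-4 and 114 in LatA + IL-4. They touched 77, 84, 89, 88, 107 and 113 of the 183 member sites in the same order. Over the whole genome the order was another, with 269643 peaks in Untreated and from 222076 in LatA + IL-4 to 232676 in IL-4 in the other libraries. Of all 578591 sites, 43.4% had a peak in Untreated, 37.2% in DMSO, 37.4% in IL-4 and 36.4% in DMSO + IL-4. The share was 37.2% in MCSF + IL-4 and 36.5% in LatA + IL-4. Of the 63 compared sites, 50 had a peak in all 6 libraries, 8 in 5, 3 in 4 and 2 in 3. Of the 120 weaker sites, 44 had a peak in 1 library only and 21 in none. The sharing of peaks between libraries was not counted over all sites, so it cannot be called particular to these windows. In Irf8, the window with the most sites, the number of peaks was 25 in Untreated, 31 in DMSO, 29 in IL-4, 24 in DMSO + IL-4, 37 in MCSF + IL-4 and 39 in LatA + IL-4. In Spi1 it was 15, 11, 13, 16, 20 and 22, and in Cebpa 17, 17, 21, 23, 28 and 23, both in the same order. In Cebpb it was 22, 27, 29, 28, 25 and 30, so that MCSF + IL-4 was not among the highest there, although its summed reads were.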

How the data were processed

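ATAC-seq was performed on 6 BMDM libraries, 1 per group, and groups were taken from the labels. By the study's methods, the authors trimmed reads (Cutadapt), aligned them to mm9 (Bowtie2, several alignments allowed per read) and cleared them of duplicates (Picard), blacklisted regions and mitochondrial reads. Versions of these tools and the way sites were joined are not given in the sources used here. Several alignments per read add reads at repeated sequence. The deposited signal per site is reads scaled by the authors to CPM with edgeR trimmed mean of M-values factors. It was turned back into whole reads, which came out whole within 0.01 read for 100% of values in each library. Peaks were called with macs2 by the authors on each library. The fold enrichment in the deposited peak lists is a ratio over the local background, and was tabulated only. The authors' −log10 q-value, deposited for each peak, served only for a stricter threshold of 3.

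Normalized reads are reads times the geometric mean of the effective library sizes over the library's own. The filter, a mean of 20 normalized reads, corresponds to between 16.2 and 27.0 reads in a library. It kept 132057 of 578591 sites, and ratios, with 1 read added for calls, were computed over all of them before the member sites were read out. Intervals are exact (Clopper-Pearson, 95%) for counting error only. No main result has a test. The additive edgeR (4.0.16) quasi-likelihood fit was an alternative, in which LatA + IL-4 carries the vehicle term by assumption, since the labels name no vehicle for it, and DESeq2 (1.42.0) gave other size factors. The scripts were tested on simulated data before use. Tables and intervals were made with Python 3.11.15 and scipy 1.17.1. Sites were not assigned to genes, so the labelled cell type was not checked against marker genes.

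The windows, the members and the motif list were chosen with earlier results of these data known. Sites were named by a rule: per window, the 3 with the most reads, and, past 1.5-fold in each direction, the first-ranked in both IL-4 comparisons, and in both the latrunculin A and the MCSF comparison, where the weaker log2 ratio sets the rank. Other sites named are said to be chosen after their values were seen, or come from the list of sites called in both IL-4 comparisons or by edgeR.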

Additional observations from a re-analysis of the deposited data

How the results depend on the processing

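Each group has 1 library, so no replicate could be left out. The only pairing that the labels give is that of the IL-4 comparisons by vehicle. The additive edgeR fit, in which vehicle is a term beside IL-4, is given with the results. Depth limits the weak sites: dropping the filter brings in sites with few reads, and a filter of 50 leaves few sites to compare, so counts of member sites moved most there. Of the counts of member sites recomputed under other settings, 95 stayed within 1.5 times and 63 did not. Of the log2 ratios of summed reads 84 stayed within the counting interval and 12 did not. These were 3 for DMSO against Untreated with total reads as the scale (0.21 to 0.39, from 0.34 to 0.51) and 9 with reads outside the largest sites as the scale: all 4 loci for latrunculin A (0.29 to 0.65, from 0.48 to 0.84), all 4 for MCSF (0.24 to 0.64, from 0.45 to 0.85) and Cebpb for DMSO against Untreated (0.24, from 0.34). Of the log2 ratios at named sites 540 stayed, and 30 left the interval once the trend with reads was removed: 8 for DMSO against Untreated, 12 for latrunculin A and 10 for MCSF. Among values past 1.5-fold 1 then turned its direction, that of the Spi1 site at +14.1 kb for MCSF, with a log2 ratio of −0.0331, and 19 under 1.5-fold changed sign. With the scalings 1 (DESeq2), 3 (total reads) and 4 (reads outside the largest sites) named-site values changed sign, all within 0.076 of 0 in the values reported. The counts of member sites that moved follow, and beyond the filters and the fold the causes of the moves were not tested.

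With no filter, of 183 sites, higher ones numbered 58 for IL-4 against Untreated, 44 for DMSO + IL-4 against DMSO, 65 for DMSO against Untreated, 43 for DMSO + IL-4 against IL-4, 102 for latrunculin A, 95 for MCSF, 25 for both IL-4 comparisons and 59 for both treatments (24.6%, 24.9%, 22.4%, 22.7%, 27.5%, 27.5%, 8.66% and 10.8% of all sites). Lower ones were 36, 43, 24, 28, 23, 26, 16 and 8 in the same order (22.4%, 24.1%, 21.3%, 22.6%, 28.0%, 27.1%, 6.87% and 9.74%). With a filter of 50 reads, of 32 sites, 4, 2, 9, 4, 23, 22, 1 and 18 were higher (21.9%, 13.6%, 16.9%, 5.89%, 44.7%, 46.0%, 10.3% and 27.5% of all sites), and lower ones were 3, 4, 0, 1 for the first 4, 0 for MCSF and 0 for both IL-4 comparisons (5.4%, 10.1%, 2.1%, 3.27%, 5.65% and 2.29%). The other settings had 63 sites. With a 2-fold threshold, higher sites were 5 for DMSO against Untreated, 1 for DMSO + IL-4 against IL-4, 20 for latrunculin A, 18 for MCSF and 7 for both treatments (3.88%, 2.99%, 11.5%, 11.8% and 2.86% of all sites). Lower sites were then 0 for IL-4 against Untreated, 0 for DMSO + IL-4 against DMSO, 1 for DMSO against Untreated, 0 for DMSO + IL-4 against IL-4 and 0 for both IL-4 comparisons (2.39%, 3.73%, 2.07%, 3.05% and 0.426%). With the trend with reads removed, higher sites were 11 for DMSO against Untreated, 23 for latrunculin A, 22 for MCSF and 11 for both treatments (10.1%, 19.2%, 19.5% and 7.89% of all sites), and lower sites were 2 for MCSF and 2 for both IL-4 comparisons (18.4% and 3.18%). With reads outside the largest sites as the scale, 15 sites were higher with both treatments (7.39% of all sites) and 1 lower (9.36%), 1 was lower with latrunculin A (23.2%), 3 with MCSF (23.4%) and 2 in both IL-4 comparisons (3.03%). Total reads gave 4 lower sites for DMSO + IL-4 against DMSO (10.6% of all sites), and DESeq2 size factors gave 2 lower in both IL-4 comparisons (2.64%). With 5 reads added, lower sites were 3 for DMSO + IL-4 against DMSO, 1 for DMSO against Untreated, 2 for DMSO + IL-4 against IL-4 and 0 for both IL-4 comparisons (10.4%, 5.44%, 7.61% and 1.67% of all sites). Crossed controls gave 1 site lower with latrunculin A (16.0%). The edgeR test called 0 higher and 0 lower for DMSO (0.175% and 0.134% of all sites), 2 higher for latrunculin A (1.54%), 15 higher for MCSF (8.45%) and 0 lower for IL-4 (0.85%).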
